A study of Arabidopsis thaliana with 434 samples.

Results

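The samples described here are the 8 leaf samples of the Arabidopsis thaliana line labelled anac017, 2 at each of 14, 18, 22 and 26 days of age, out of 434 samples in the series. The series counted transcripts of NAC genes directly on an nCounter instrument, from 100 ng of total RNA per sample and with no amplification step, in wild-type Columbia (Col) and in lines that each carry a T-DNA insertion in a NAC gene. All lines share the Columbia background and were grown at 22 °C with 16 h of light and 8 h of dark. The 8 samples are the columns whose titles join the label anac017 to an age and to A1 or A2, and they were set against the 10 Col samples with the same letter, 4 at 14 d and 2 at each later age. All 34 Col samples of the 4 ages, the 136 samples of the 17 other lines with the letter A, and the 8 samples of the line labelled anac082 were used for further comparisons. The labels do not say what the letter stands for, which T-DNA collection this line came from, or whether replicate samples came from separate plants. The p-values below therefore measure the spread between samples, which may be technical. For the tests of single genes that spread was estimated over all 434 samples together, not over the 8 and 10 samples alone. Each gene is represented by 1 line, so no second allele is available.

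NAC proteins are a plant-specific family of transcription factors, and many of their genes change in level as a leaf ages. ANAC017 is made as a protein anchored in the endoplasmic reticulum membrane. When mitochondria fail, its DNA-binding part is released, enters the nucleus and switches on nuclear genes such as the alternative oxidase gene AOX1a, a route known as mitochondrial retrograde signalling. ANAC017, ANAC082 and ANAC090 are also known as 3 NAC factors that hold back leaf senescence before its onset, and ANAC082 is known separately for mediating the response to disturbed ribosome production.

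The code set held probes for 49 NAC genes and 4 reference genes, ACT2, ACT7, TUB2 and UBQ10. Each count was divided by the mean of the 4 reference counts of its sample and put back on the scale of counts, which is called the normalised count here. The 8 samples of the line held 135114 to 480623 counts in total and the 10 letter A Col samples 187841 to 640466. Among the references, the share of counts from TUB2, a tubulin gene, was lower in the line than in letter A Col at every age, 3.13 to 3.32% against 3.37 to 3.81% at 14 d and 1.37 to 2.14% against 2.55 to 2.86% at 26 d. The 26 d sample A1 of the line stood apart from its partner, with 86.3% of reference counts from UBQ10 against 81.2%. The probe set holds no marker of leaf mesophyll or epidermis, so the labelled tissue could not be checked against markers. In whole leaves, fewer cells of a type and less RNA per cell cannot be told apart.

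The transcript of ANAC017 (AT1G34190) itself was higher, not lower, in the line labelled anac017 than in wild type. How a T-DNA insertion in this gene bears on its level was not tested. At 14 d its normalised counts were 3051, 3105, 3131 and 3504 in the letter A Col samples, against 11022 and 9426 in the line. At 18 d they were 3227 and 3990 against 10436 and 9344. The line lay above Col by a wide gap at both of these ages. At 22 d the counts were 4817 and 5879 against 10037 and 12484. At 26 d they were 5082 and 5160 against 8802 and 15759. The groups did not overlap at any age, and each sample of the line was also above every sample of every other line of its age, the highest of which held 5141, 5526, 9941 and 6637 at the 4 ages in turn. With the ages pooled the difference was 1.37 on the log2 scale (SE 0.11), or 2.58-fold with a 95% interval of 2.23 to 2.99 (adjusted p = 1.4e-27, edgeR's quasi-likelihood test). The 48 other lines differed from their own Col samples by −0.22 to 0.28 in this transcript. By age the difference was 1.68 at 14 d, 1.45 at 18 d, 1.07 at 22 d and 1.26 at 26 d, each past the test, and a test of whether it changed with age did not pass (adjusted p = 0.37). Without the 26 d sample A1 the pooled difference was 1.46. The 26 d value leaned on single samples, with 1.62 without A1 and 0.78 without A2, the sample at 15759 (adjusted p = 0.0054, and at most 0.0079 over all alternatives). Neither the insertion's position nor the probe's is stated in the labels or files used here, so the counts do not show whether the detected transcript is intact or codes for a protein.

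ANAC082 (AT5G09330) moved with the same sign in every sample of the line. At 14 d its normalised counts were 814, 806, 821 and 906 in letter A Col, against 1853 and 1373 in the line. At 18 d they were 891.3 and 891.0 against 1735 and 2143. These 4 samples of the line lay far above wild type, and the wild-type samples lay close together. At 22 d the counts were 1180 and 1246 against 1943 and 2089. At 26 d they were 1413 and 1237 against 2286 and 1982. All 8 samples of the line were above all Col samples of their age with any letter, and above every sample of every other line, the highest of which held 1127, 1205, 1797 and 1660 at the 4 ages in turn. The pooled difference from letter A Col was 0.87 on the log2 scale (SE 0.089), or 1.83-fold with a 95% interval of 1.62 to 2.07 (adjusted p = 5.3e-16, edgeR's quasi-likelihood test adjusted over 2256 pairs of a line and a gene other than its own). The 47 lines other than anac017 and anac082 differed from their own Col samples by −0.25 to 0.21. Over 32 alternative ways of processing, the pooled value lay between 0.718 and 1.002 and passed the test in each. With the references' geometric mean taken without TUB2, a choice made after seeing the data, it was 0.900, and without the 26 d sample A1 it was 0.85.

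**Figure D1:**
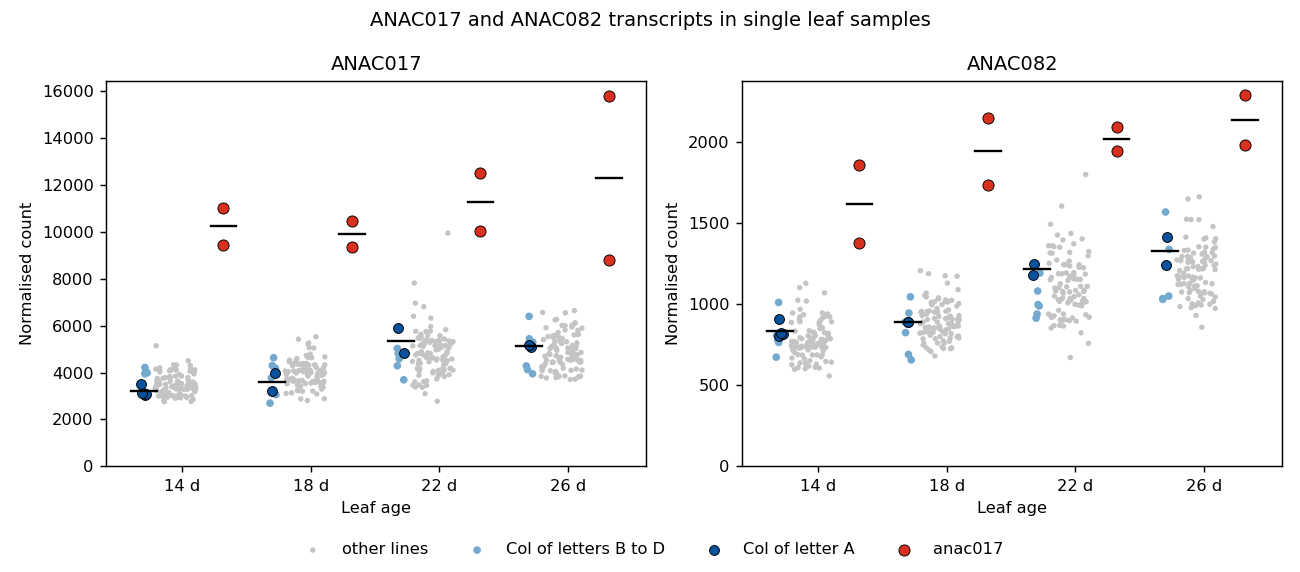
Normalised counts of ANAC017 and ANAC082 (y axes) in single samples at each leaf age in days (x axes); red points are the line labelled anac017, dark blue points letter A Col, light blue points Col with other letters, grey points the other lines, and black bars the means of letter A Col and of the line. The line named after the gene plotted is left out of the grey points. The 8 red points lie above all other points of their age in both panels.

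Taken age by age, the difference in ANAC082 passed the test at 14 d (0.95, SE 0.15, adjusted p = 4.1e-06) and at 18 d (1.12, SE 0.19, adjusted p = 7.7e-06). At 22 d it was 0.73 (SE 0.18, adjusted p = 0.072) and at 26 d 0.69 (SE 0.18, adjusted p = 0.091), which did not pass over all pairs of lines and genes. With the adjustment kept to the 46 other genes of this line, a choice made after seeing the data, the adjusted p was 0.0044 at 22 d and 0.0056 at 26 d. With scaling on the positive control probes in place of the reference genes, the difference was 1.06 at 14 d (adjusted p = 0.094) and 0.91 at 18 d (adjusted p = 0.999), while the other 32 alternatives kept both ages past the test. The difference at 26 d minus that at 14 d was −0.26, which did not pass the test (adjusted p = 0.9997). In letter A Col the mean of ANAC082 at 26 d was 1.58 times that at 14 d, and in the line 1.32 times. For ANAC017 the same ratio was 1.60 in letter A Col and 1.20 in the line. Between samples of the line, the higher ANAC017 did not always go with the higher ANAC082: at 26 d the sample with 15759 for ANAC017 held 1982 for ANAC082, and the sample with 8802 held 2286.

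Against letter A Col with the ages pooled, 2 of the 46 other NAC genes tested passed at an adjusted p under 0.05, which is 4.35% of them. Over all lines, 22 of 2256 pairs passed, or 0.975%. At an unadjusted p under 0.05, 10 of the 46 genes differed, 8 of them higher and 2 lower, against 146 of the 2256 pairs over all lines. The median difference over the 46 genes was 0.08 on the log2 scale, with 27 genes above 0 and 19 below. The genes past the test were ANAC082 and ANAC100, both higher. The choice of scale moved all genes together, with a median over the 46 genes of −0.05 after TMM scaling and 0.21 with the geometric mean of the references. Relative to that median, ANAC082 stood 0.78 to 0.84 higher and ANAC100 0.75 to 0.78 higher over the scalings tried.

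**Figure D2:**
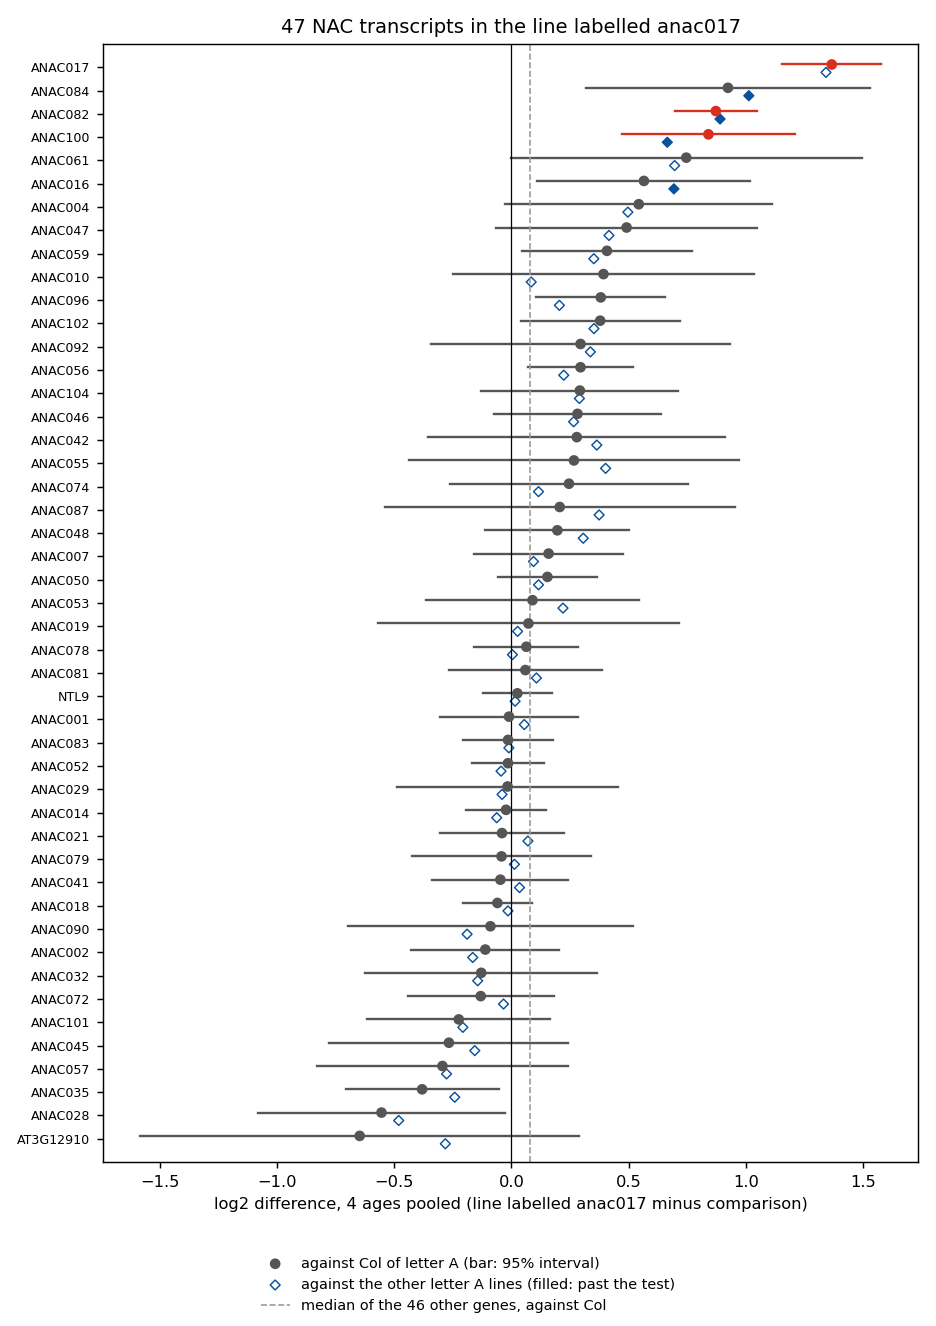
Difference of the line labelled anac017 from letter A Col on the log2 scale (x axis) for each of 47 NAC genes (y axis), with the ages pooled; circles are estimates with 95% intervals, red where past the test, diamonds are the difference from the other letter A lines, filled where past the test, and the dashed line is the median of the 46 other genes at 0.08. ANAC017, ANAC082 and ANAC100 are the red circles.

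ANAC100 (AT5G61430), a close relative of the senescence regulator ORE1 (ANAC092), is a gene of low level here, with 61 to 260 raw counts in the samples of the line. At 14 d its normalised counts were 44.9, 39.9, 59.0 and 54.5 in letter A Col, against 59.0 and 66.1 in the line. At 18 d they were 49.7 and 55.3 against 99.6 and 151, which is a clear gap. At 22 d the groups overlapped, with 87.1 and 131 against 176 and 122. At 26 d they were apart again, with 101 and 76.6 against 260 and 186. The pooled difference was 0.84 (SE 0.19, 95% interval 0.47 to 1.21, adjusted p = 0.0018), or 0.77 without the 26 d sample A1 (adjusted p = 0.013), and single ages gave 0.33, 1.25, 0.45 and 1.32 in order, none past the test. Scaling on the positive control probes gave 0.80 (adjusted p = 0.089), and over the 31 alternatives that tested it the value lay between 0.69 and 1.01. In the line labelled anac090 the same gene was higher by 1.21 against its own Col samples and passed the test there as well.

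The 17 other lines with the letter A give a second and larger set to compare with. At an unadjusted p under 0.05 in edgeR's test were 14 of the 46 genes, against 83 of 828 pairs over the 18 letter A lines. After adjustment 4 of the 46 genes passed, which is 8.70%, against 11 of the 828 pairs, or 1.33%. All 4 were higher in the line labelled anac017: ANAC082 by 0.89 (adjusted p = 2.4e-31), ANAC100 by 0.66 (adjusted p = 1.5e-04), ANAC084 by 1.01 (adjusted p = 6.5e-04) and ANAC016 by 0.69 (adjusted p = 0.0030). The samples of the line enter both this comparison and the one with Col, so the 2 are not independent. ANAC082 differed by 0.97, 1.11, 0.70 and 0.79 at the 4 ages in turn.

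ANAC084 (AT5G14000) is close to the background of the assay at the earlier ages. At 14 d its normalised counts were 14.8, 14.6, 20.9 and 20.3 in letter A Col, against 28.1 and 27.5 in the line. At 18 d they were 5.92 and 20.8 against 21.2 and 47.8, from 13 and 25 raw counts in the line, where the negative control probes averaged 5.19. At 22 d they were 29.4 and 106 against 68.1 and 103. At 26 d the values were 52.9 and 82.0 against 120 and 235. The groups overlapped only at 22 d, and at 18 d the nearest values were 21.2 in the line and 20.8 in Col. The pooled difference from letter A Col was 0.92 (SE 0.31, adjusted p = 0.20). Of 47 other lines 1 stood higher against its own Col, anac052 at 0.93 (adjusted p = 0.44 in edgeR's test). Without the 18 d sample A2 the difference from the letter A lines was 0.84 (adjusted p = 0.095, against 6.5e-04 with it), and that is the one alternative of 27 in which it missed the test. The difference from letter A Col passed the test in 5 of 31 alternatives, with adjusted p from 0.0021 to 0.69 over all of them. Among the 5 were all Col samples without a letter term (1.03, adjusted p = 0.0029) and leaving out the 22 d Col sample A2 (1.22, adjusted p = 0.034).

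ANAC016 (AT1G34180), a membrane-anchored factor known to promote senescence, is the gene directly next to ANAC017 on its chromosome. At 14 d its normalised counts were 100, 83.3, 96.1 and 157 in letter A Col, against 193 and 150 in the line. At 18 d they were 204 and 222 against 362 and 503, and at 22 d 329 and 527 against 552 and 670. The line was above Col at these last 2 ages. At 26 d the groups overlapped, with 636 and 508 against 644 and 560. The pooled difference from letter A Col was 0.57 (SE 0.23, adjusted p = 0.52). Against all Col samples with no term for the letter it was 1.02 and passed the test (adjusted p = 2.8e-05), and over all 32 alternatives the adjusted p ran from that value to 0.76. Pooled differences in ANAC016 above 0.57 were seen in 3 other lines against their own Col, among them anac090 at 1.92 and anac035 at 1.06, both past the test. ANAC017 and ANAC016 are related genes, probe sequences were not used here, and the part of ANAC017 RNA in the ANAC016 count was not tested.

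**Figure D3:**
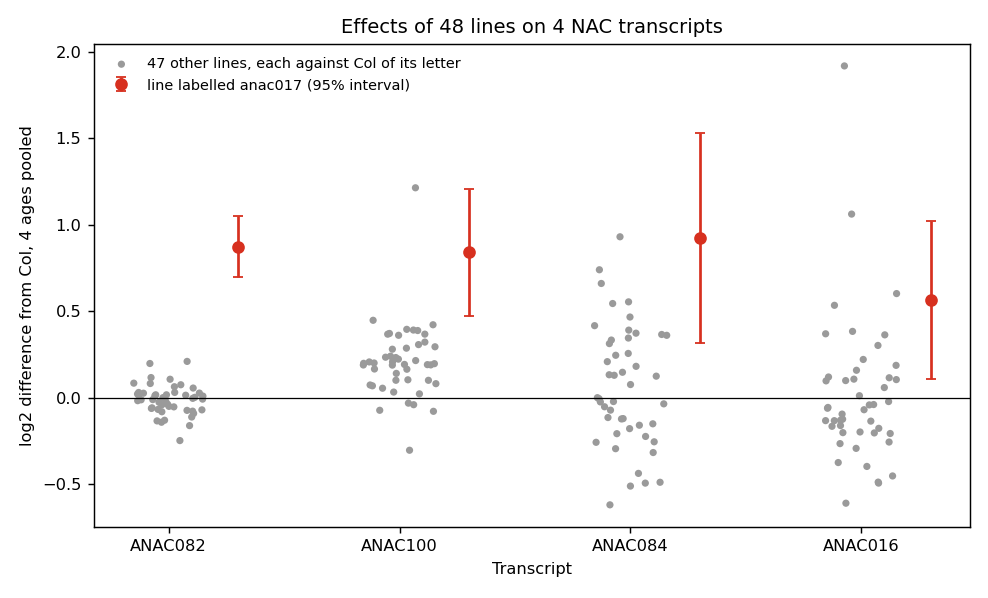
Pooled log2 difference from Col of the same letter (y axis) for ANAC082, ANAC100, ANAC084 and ANAC016 (x axis), with 1 grey point for each of 47 other lines (the line named after the gene is left out) and a red point with its 95% interval for the line labelled anac017. For ANAC082 the red point stands at 0.87 above grey points that end at 0.21, and for ANAC016 the grey points reach 1.92.

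**Figure D4:**
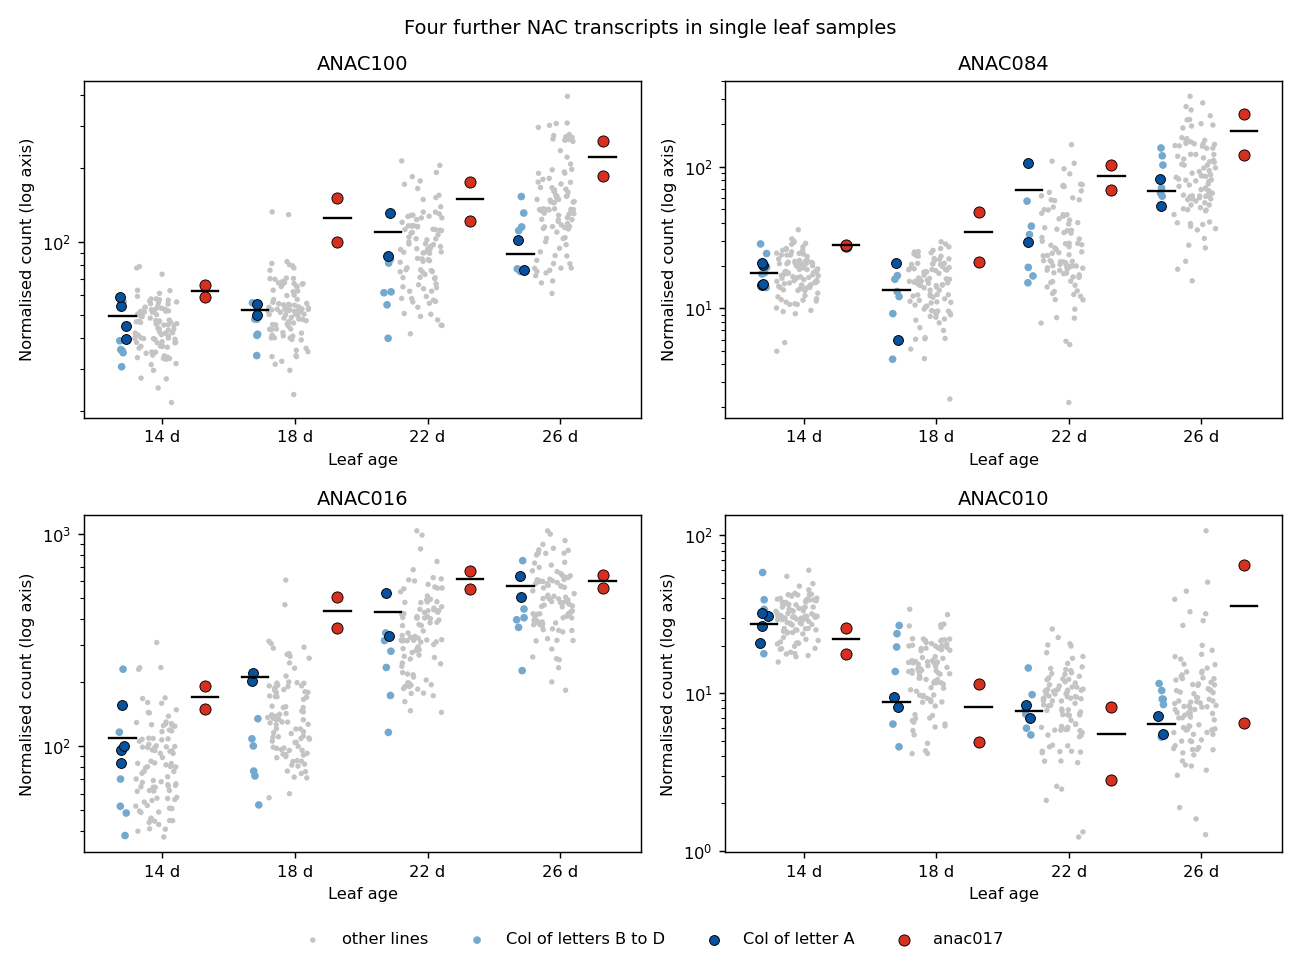
Normalised counts (y axes, log scale) of ANAC100, ANAC084, ANAC016 and ANAC010 in single samples by leaf age in days (x axes), in the colours red for the line labelled anac017, dark blue for letter A Col, light blue for other Col and grey for the other lines. The red points of ANAC100 are above all dark blue points at 14, 18 and 26 d. At 14 d the nearest points are almost level, at 59.02 (red) and 58.97 (dark blue). For ANAC010, 1 red point stands at 64.9 at 26 d.

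The standing of the 46 other genes as a whole is given by age, and a difference between ages was not tested for the set. At 14 d 5 genes (10.9%) had both samples of the line above all letter A Col samples and 2 (4.35%) had them below. At 18 d 22 (47.8%) were above and 1 (2.17%) below. At 22 d 4 (8.7%) were above and 11 (23.9%) below, and at 26 d 9 (19.6%) above and 3 (6.52%) below. The genes of a sample share its scale, so these counts do not come from independent genes. To be counted, a gene had to clear 4 Col values at 14 d but only 2 at 18, 22 and 26 d. The demand from 18 d on is easier to meet by chance alone. The shares at 14 d therefore cannot be compared directly with the others. The median differences were 0.05 at 14 d, 0.32 at 18 d, −0.20 at 22 d and 0.14 at 26 d. These medians moved with single samples. Without the 22 d Col sample A2 the 22 d median was 0.08, with 28 genes above 0, and without the 26 d sample A1 of the line the 26 d median was 0.01. At 14 d it was −0.06 without sample A1 of the line, and at 18 d it stayed between 0.18 and 0.45. The 18 d samples of the line had the lowest totals of the 8, at 151097 and 135114. The mean log2 normalised count over these genes gave the same order, with 7.52 to 7.87 in Col against 7.99 to 8.32 in the line at 18 d, and 8.19 to 8.78 against 8.13 to 8.44 at 22 d. Over all ages that mean was 0.15 higher in the line (exact two-sided permutation test within ages, 3240 arrangements, p = 0.263). Leaving out 1 sample gave 0.08 to 0.22, the lowest without the 22 d Col sample A1 and the highest without A2, and none had an exact p under 0.05. The scale moved it too, to 0.02 with TMM (p = 0.549) and to 0.27 with the geometric mean of the references (p = 0.106). Against all Col samples of any letter it was 0.24 (p = 0.0121, exact two-sided permutation test within ages), the one of the 24 alternatives that passed. There the labels were exchanged across letters, while all samples of the line have the letter A. That p-value therefore also takes in any difference between letters.

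Of the 46 other genes, ANAC082 was the one that stayed clear of letter A Col at all 4 ages (2.17%). At 3 ages or more 5 genes (10.9%) had both samples above, namely ANAC082, ANAC100, ANAC084, ANAC096 and ANAC056. For ANAC100 at 14 d the nearest values were 59.02 in the line and 58.97 in Col, and for ANAC084 at 18 d 21.2 and 20.8. ANAC056, known from the development of the seed integument, was at 1231 and 1499 in Col against 1717 and 1898 in the line at 18 d. It was at 2158 and 1786 against 2527 and 2434 at 22 d, and at 1826 and 1714 against 2185 and 2412 at 26 d. The line was above Col at these 3 ages by a small step, and the pooled difference was 0.29 (SE 0.11, adjusted p = 0.44). ANAC035 was the one gene (2.17%) with both samples below at 2 ages or more, with a pooled difference of −0.38 (adjusted p = 0.60). ANAC102, ANAC004, ANAC032 and ANAC090, named after their values were seen, were above Col at 18 d and below it at 22 d.

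Tested age by age, 1 of 46 genes passed at 14 d (2.17%, against 1.51% of pairs over all lines), 1 at 18 d (2.17% against 0.177%), none at 22 d (0% against 0.0887%) and 1 at 26 d (2.17% against 0.222%). At 22 d 5 of the 46 genes were at an unadjusted p under 0.05 in edgeR's test, against 97 of 2256 pairs over all lines. The gene was ANAC082 at 14 d and 18 d. At 26 d it was ANAC010 (AT1G28470), known as SND3, a factor of secondary wall formation in xylem and fibres. Its normalised counts there were 5.53 and 7.21 in Col, against 64.9 and 6.45 in the line, so the 2 samples of the line lay on different sides of the wild-type pair's upper value. The fitted difference of 2.50 (adjusted p = 0.032) rested on the sample A1, without which it was 0.024. It also missed the test without either Col sample, at 2.32 and 2.70. The same sample held 2230 normalised counts of ANAC055, a stress-responsive factor of the jasmonate and abscisic acid pathways, against 400 in its partner and 227 and 415 in Col. No gene passed a test of whether the difference changed with age (0%, against 0.0443% of pairs over all lines). In edgeR's test 2 of the 46 were at an unadjusted p under 0.05, against 90 of 2256 pairs over all lines. The smallest p belonged to ANAC010 (adjusted p = 0.22).

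The genes were also grouped by their known roles. Among the 13 tested genes known to promote senescence, 9 lay above 0 with a median of 0.09 and none passed, against a median of 0.08 over all 46 genes. ANAC092 (ORE1), a central promoter of leaf death, was at 0.29 and ANAC059 (ORS1), its close relative, at 0.41. ANAC046, which raises chlorophyll breakdown, was at 0.28, and ANAC072 (RD26), a drought-responsive factor, at −0.13. Of the factors that delay senescence, ANAC042 (JUB1) was at 0.28 and ANAC083 (VNI2) at −0.01. The adjusted p-values of these 6 genes were between 0.68 and 0.99. Single samples moved several of these values: leaving out 1 gave 0.03 to 0.62 for ANAC092 (the lowest without sample A2 of the line at 22 d, the highest without Col A2 at 22 d) and 0.09 to 0.46 for ANAC042 (the lowest without sample A1 of the line at 22 d, the highest without Col A2 at 22 d). The 4 tested genes of the ANAC092 group, ANAC092 itself among them, had a median of 0.35, with ANAC100 as the one gene past the test.

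The stress-responsive group known as SNAC-A, which includes ATAF1 (ANAC002), had a median of 0.06 with 4 of 7 genes above 0. By age, 2 of the 7 lay above 0 at 14 d (median −0.23), 6 at 18 d (0.41), none at 22 d (−0.50) and 7 at 26 d (0.35), and none passed at any age. Single samples carried the last 2 counts. Without the 22 d Col sample A2, in which ANAC019 stood at 2254 against 561 in its partner, 3 of 7 lay above 0 at 22 d (median −0.24). Without the 26 d sample A1 of the line, in which ANAC019 stood at 3388 against 1218, 4 of 7 lay above 0 at 26 d (median 0.04), and without the 26 d Col sample A1 also 4 (median 0.06). The 5 other membrane-anchored factors had a median of 0.06 with none past the test, and the 3 genes whose proteins bind the mitochondrial dysfunction motif, as ANAC017 does, had a median of 0.09 with none past the test. Against the other letter A lines ANAC016 was the one called gene of these groups. The 4 tested xylem and wall genes had a median of 0.23, with 3 above 0, 1 below and none past the test. ANAC104 (XND1), which limits xylem differentiation, was at 0.29 (0.16 to 0.50 on leaving out 1 sample). ANAC007 was at 0.16 and ANAC101 at −0.22. ANAC010 was at 0.39, with 64.9 normalised counts in the 26 d sample A1 of the line against 6.45 in its partner. ANAC045, which acts in phloem, was at −0.27. Its raw counts in the line were near background, at 6 and 7, 7 and 9, and 8 and 3 at 18, 22 and 26 d. The negative control probes averaged 5.19. ANAC050 and ANAC052, partners of a histone demethylase, were at 0.15 and −0.01, and ANAC078 was at 0.06, all with adjusted p between 0.92 and 0.99.

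Of the 3 genes known to hold back senescence, ANAC090 (AT5G22380) did not follow ANAC082. Its normalised counts at 14 d were 147, 104, 104 and 185 in letter A Col, against 97.0 and 140 in the line. At 18 d they were 86.4 and 113 against 153 and 283, and at 22 d 230 and 306 against 136 and 162. The line was above Col at 18 d and below it at 22 d. At 26 d the counts were 292 and 204 against 228 and 135. The pooled difference was −0.09 (SE 0.31, 95% interval −0.70 to 0.52, adjusted p = 0.99), an interval that leaves room for changes of that size in either direction.

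The line labelled anac082 shares the letter A. Its normalised counts of ANAC017 were 3232 and 3019, 4214 and 5048, 4395 and 5750, and 5035 and 5798 at the 4 ages in turn. At 18 d both were above letter A Col, at 3227 and 3990, and at the other ages the groups overlapped. The line's own transcript ANAC082 was at 848 and 771, 875 and 1054, 720 and 1402, and 1358 and 1457 at the same ages. Its pooled difference from letter A Col was −0.0055 (SE 0.089). The 22 d values lay on either side of all Col samples of that age, which held 913 to 1246. In the line labelled anac090, ANAC082 was at 1069 and 827, 1129 and 1205, 1159 and 1226, and 1292 and 1151. Set against the line labelled anac082, 5 of 46 genes differed in the line labelled anac017 (10.9%), with the adjustment over these 46 genes alone. That is a smaller set than in the comparisons above, and no share over other pairs of lines was computed. ANAC082 (0.88, adjusted p = 1.8e-16), ANAC084 (1.15, adjusted p = 0.010), ANAC100 (0.60, adjusted p = 0.026) and ANAC056 (0.35, adjusted p = 0.030) were higher, and ANAC002 (−0.57, adjusted p = 0.010) was lower. ANAC002 was itself higher in the line labelled anac082 than in the other letter A lines, by 0.44 (adjusted p = 0.013). Without the 18 d sample A2 of the line labelled anac017, ANAC082 was the 1 gene left of the 5, and without its 22 d sample A1 there were 2.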

How the data were processed

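The authors deposited raw nCounter counts per probe, and a table of log2 values that they derived from them, which was used here only in the limma alternative. How those were normalised is not stated in the labels. All counts of the 434 samples were fitted together with edgeR 4.0.16 (R 4.3.3), with 1 mean per genotype, letter and age and the mean of the 4 reference counts as offset. Of 49 NAC genes, 47 had a mean count above 12.6, a limit set 2 SD over the mean of the 8 negative probes (ANAC076 and ANAC086 did not). The common dispersion was 0.0899, a coefficient of variation of 0.300, and UBQ10 gave 80.6% of the reference counts in the median sample. Adjusted p-values are Benjamini-Hochberg values over 2256 pairs of a line and another gene, over 828 pairs for the letter A lines, over all targeted genes for ANAC017 in its own line, and over 46 genes against the line labelled anac082. The threshold was an adjusted p under 0.05. The script was tested on simulated data. None of the 13 pairs of samples within a group of the line or of letter A Col held the same values or differed by less than counting noise. Counts cover counting error only, and the number of samples limits the precision.

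The members and gene lists were chosen with earlier results of these data known. The text names ANAC017, its neighbour ANAC016, ANAC082, ANAC090, all genes past a test, those apart from letter A Col at every age, those with the smallest p for a change with age, and the members of each list with the smallest pooled p. Alternatives were other scalings (TMM, geometric mean, without UBQ10, positive controls), DESeq2 1.42.0, limma 3.58.1, other filters, all Col samples, a replicate block, smaller fits and leaving out each sample. No sequences are printed, since none were given.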

Additional observations from a re-analysis of the deposited data

Results flagged for a closer look

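Among 26 measures tested in the 4 letter A Col samples at 14 d, 4 held a sample far from the other 3 by Dixon's criterion (critical value 0.829). Chance gives about 1 in 20 such cases. The normalised count of ANAC082 was 906 in 1 sample against 806 to 821 in the others, which is still below both samples of the line labelled anac017. For ANAC042 it was 323 against 142 to 168, for ANAC078 3450 against 2852 to 2881, and for ANAC052 632 against 607 to 608.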

How the results depend on the processing

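The number of the 46 other genes past the test depended on the processing, and the cause was not tested. With the ages pooled (2 genes) it was 1 with positive control scaling and with a filter at a mean of 100 counts (which removes ANAC100), 6 with all Col samples and no letter term (ANAC016, ANAC056, ANAC061 and ANAC084 besides the 2), and 4 with the replicate block. At 14 d (1 gene) it was 0 with positive controls. At 18 d (1 gene) it was 0 with positive controls, 6 with all Col and no letter, and 2 with the block or with adjustment within the line. At 22 d (0 genes) it was 1, ANAC082, with TMM, the geometric mean with or without TUB2, no UBQ10, all Col with or without the letter, the block, the line and letter A Col alone, DESeq2, limma and adjustment within the line. At 26 d (1 gene) it was 0 with TMM, positive controls, the filter at 100, ages fitted separately, DESeq2 and limma, 2 with the geometric mean with or without TUB2, no UBQ10 and the line and letter A Col alone, 3 with all Col with or without the letter and with adjustment within the line, and 4 with the block. For a change with age (0 genes) it was 1 with all Col and no letter and 2 with the block, and DESeq2 and limma gave no such test. Against the letter A lines (4 genes) it was 7 with the geometric mean, 2 with the filter at 100 and 9 with adjustment within the line, and against anac082 (5 genes) 2 without UBQ10 and 3 with the filter at 100. The mean over the other genes was 0.24 with all Col, 0.02 with TMM and 0.27 with the geometric mean.

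Leaving out 1 sample gave 2 to 3 genes pooled, 0 to 1 at 26 d (0 without either Col sample or sample A1 of the line), 0 to 1 for a change with age (1, ANAC010, without the 26 d sample A2), 3 to 4 against the letter A lines and 1 to 5 against anac082.

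Signs turned for genes near 0. ANAC090 was 0.043 with the geometric mean, 0.023 without UBQ10 and −0.22 to 0.0046 on leaving out 1 sample. ANAC083 was 0.098, 0.00055 without TUB2, 0.068 without UBQ10, 0.018 with all Col and no letter, and −0.14 to 0.078 on leaving out 1. ANAC052 was 0.11, 0.0084, 0.082, 0.12 and −0.080 to 0.040 in the same order. ANAC078 was −0.058 with TMM, −0.065 with DESeq2 and −5.4e-05 to 0.14 on leaving out 1. ANAC045 ranged from −0.43 to 0.0029 and ANAC072 from −0.25 to 0.013.

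Same-numbered samples of the line and of letter A Col correlated at 0.16, 0.31, 0.24 and −0.066 at the 4 ages, so the numbers were not taken as pairs. The block added ANAC084 (1.13) and ANAC016 (0.70) to the pooled calls. Limits are the 2 samples of the line per age, the low counts of ANAC084, ANAC010, ANAC045 and ANAC100, and the shared Col samples. Those choices added after seeing the data are the adjustment within the line, ages fitted separately and the geometric mean without TUB2.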
